A study of Mus musculus with 12 samples.

Results

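The genes of bile acid synthesis and of the bile acid receptor FXR were followed in 6 KO and 6 WT liver RNA libraries of mice. The rule named 10 genes: the enzymes Cyp7a1, Cyp8b1, Cyp27a1, Cyp7b1, Hsd3b7, Akr1d1, Amacr and Baat, and the nuclear receptors Nr1h4 and Nr0b2. Of these, 9 were measured, among 15140 genes in the count table, and all 9 passed the filter on low counts. Hsd3b7 was not analysed here. KO mice lacked prohibitin 1, a scaffold protein of the inner mitochondrial membrane, in adipocytes (labelled Phb1adipo-/- and Phb1 KO), and WT mice were the controls. The mice were male, were started on a high-fat diet (D12492, 60 kcal% fat) at 7 to 8 weeks of age and stayed on it for 3 months. The deletion is labelled as one of adipocytes, and the Cre driver is not given in the sources used here. Poly(A) RNA was sequenced, and no label says when in the day or after what fast the livers were taken.

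Bile acids are made from cholesterol in hepatocytes. In the classic route Cyp7a1 adds the first hydroxyl group and sets the rate, and Cyp8b1 adds the 12 alpha-hydroxyl group that makes cholic acid. In the alternative route Cyp27a1, a mitochondrial enzyme, hydroxylates the sterol side chain and Cyp7b1 hydroxylates the ring of the resulting oxysterols. Akr1d1 then reduces the ring, Amacr turns the side chain intermediates into the form that peroxisomes can shorten, and Baat joins the finished acid to taurine or glycine. Nr1h4 encodes FXR, which binds bile acids and induces Nr0b2, and Nr0b2 encodes SHP, a receptor-like protein without a DNA-binding domain that holds back Cyp7a1 and Cyp8b1. Cyp7a1 transcripts are known to follow the time of day and feeding, and Cyp7b1 is known as a male-biased gene of mouse liver.

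Promoter windows from RefSeq (GRCm38.p6, 250 bases before to 50 after the annotated start, written 5′ to 3′ on the strand of the gene) were found for 6 of the 10 genes: Akr1d1, Cyp27a1, Cyp8b1, Hsd3b7, Nr0b2 and Nr1h4. The 4 windows below are shown because Nr1h4 and Akr1d1 stood furthest from WT by p among the members, and because Cyp8b1 and Nr0b2 are the textbook output genes of this circuit. Capitals mark every match, on either strand, to 6 motifs: the NR5A core TCAAGG, the nuclear receptor core AGGTCA, its inverted repeat with a 1-base spacer AGGTCANTGACCT, the HNF4 site CAAAGTCCA, TTANNTAA as a loose form of the D-box, and the TATA box core TATAAA. Dbp, Tef and Hlf bind D-boxes, and the loose form also takes in words that are not D-boxes.
Nr1h4 (chr10:89506609-89506908, minus strand): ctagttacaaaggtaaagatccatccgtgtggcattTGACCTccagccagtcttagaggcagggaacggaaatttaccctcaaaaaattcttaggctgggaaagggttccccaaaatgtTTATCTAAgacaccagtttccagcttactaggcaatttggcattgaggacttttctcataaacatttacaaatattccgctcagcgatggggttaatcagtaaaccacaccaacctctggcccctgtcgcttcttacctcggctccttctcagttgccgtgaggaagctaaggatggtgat
Akr1d1 (chr6:37529923-37530222, plus strand): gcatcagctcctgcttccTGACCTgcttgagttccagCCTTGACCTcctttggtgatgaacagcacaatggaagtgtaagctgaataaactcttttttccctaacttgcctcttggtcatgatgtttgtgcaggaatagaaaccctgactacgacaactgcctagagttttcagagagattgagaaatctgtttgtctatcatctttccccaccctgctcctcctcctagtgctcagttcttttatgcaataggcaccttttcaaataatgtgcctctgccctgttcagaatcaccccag
Cyp8b1 (chr9:121916256-121916555, minus strand): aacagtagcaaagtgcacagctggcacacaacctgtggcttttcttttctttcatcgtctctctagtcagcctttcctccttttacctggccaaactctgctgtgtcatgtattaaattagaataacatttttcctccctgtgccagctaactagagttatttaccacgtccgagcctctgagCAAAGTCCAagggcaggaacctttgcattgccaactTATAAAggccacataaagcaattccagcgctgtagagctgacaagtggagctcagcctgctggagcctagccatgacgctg
Nr0b2 (chr4:133553126-133553425, plus strand): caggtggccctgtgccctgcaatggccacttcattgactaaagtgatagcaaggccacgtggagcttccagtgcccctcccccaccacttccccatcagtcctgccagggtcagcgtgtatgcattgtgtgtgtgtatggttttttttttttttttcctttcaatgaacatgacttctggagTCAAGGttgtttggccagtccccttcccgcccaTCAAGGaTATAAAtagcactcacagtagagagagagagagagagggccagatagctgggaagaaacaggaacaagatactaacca
The Nr0b2 window held 2 NR5A cores, which begin 68 and 35 bases before the start, and a TATA box core at 28 bases before it. The Cyp8b1 window held an HNF4 site 67 bases and a TATA box core 31 bases before the start. The Akr1d1 window held 2 nuclear receptor cores, 1 of which overlaps an NR5A core, all more than 200 bases before the start. The Nr1h4 window held 1 nuclear receptor core and 1 loose D-box, and it belongs to an internal start 26927 bases downstream of the 5′ end of the gene in GENCODE M21. The Cyp27a1 and Hsd3b7 windows, not shown, held no match to any of the 6 motifs. The inverted repeat was found in none of the 6 windows. Of 32851 RefSeq windows, 14.4% hold the NR5A core, 16.3% the nuclear receptor core, 0.00913% its inverted repeat, 0.475% the HNF4 site, 6.0% the loose D-box and 13.6% the TATA box core. Matches of such short words describe the letters and are not evidence of binding.

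The 6 KO libraries held 34121087 to 37973022 counts, and the 6 WT libraries 30348123 to 40828767 counts. Phb, the prohibitin 1 gene, stood at a log2 fold change of 0.15 ± 0.054 (SE; edgeR, adjusted p = 0.144) in these livers, which does not check a deletion made in fat. The tissue label was checked against markers. The summed level of the 7 measured of 8 hepatocyte markers, Alb and Ttr among them, lay at 71750 to 96510 CPM in KO and 69030 to 99920 CPM in WT. Of 6 adipocyte markers only 2, Cfd and Fabp4, were measured, and they summed to 6.61 to 50.3 CPM in KO and 9.41 to 27.5 CPM in WT. Adipoq, Plin1, Lep and Retn were absent from the deposited counts, so their levels are not known. Of 15000 genes tested, 396 differed between KO and WT at an adjusted p under 0.05 (Benjamini-Hochberg, edgeR's quasi-likelihood test), 172 higher and 224 lower in KO. That count lay between 25, without WT library 4, and 700, without WT library 6, when 1 library was left out. No label ties a library to an animal or a preparation, and the p-values therefore reflect the spread among the 12 libraries alone, part of which may be technical.

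None of the 9 measured members passed the test between KO and WT. The count was 0 of 9 with edgeR, against 2.64% of all genes tested (1.15% higher and 1.49% lower in KO), and 2 of 9 with an unadjusted p under 0.05, a share of 22.2% that lies near the 21.2% of all genes. It was 0 with limma-voom and 2, Nr1h4 and Akr1d1, with DESeq2, which called 8.02% of all genes. In no member were KO and WT apart without overlap, as they were for 2.53% of all genes. The median log2 fold change of the members was 0.015 (5 positive, 4 negative), beside 0.003 over all genes. The authors' deposited table gave adjusted p-values of 0.00167 for Nr1h4 (log2 fold change -0.39) and 0.0142 for Akr1d1 (-0.59), where 5.58% of genes with an adjusted p stood under 0.05, and between 0.265 and 0.978 for the other 7. The plot of the 9 genes by library shows their levels in CPM, the read count scaled to library size with TMM factors.

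**Figure D1:**
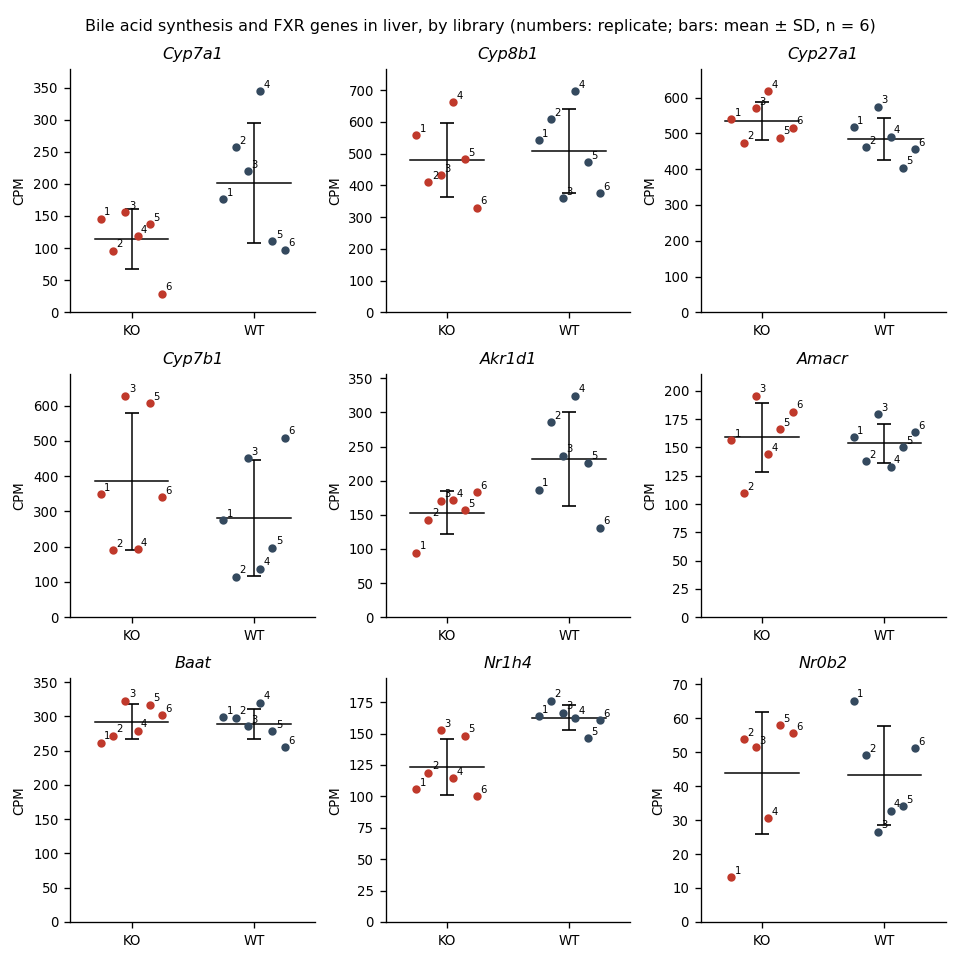
Level of each of the 9 measured genes (y axis, CPM, linear from 0) in KO and WT libraries; each point is a library with its replicate number, and the bars give the mean and SD of 6. Nr1h4 separates the groups most clearly, with 4 KO points under every WT point, while Cyp7a1, Cyp7b1 and Nr0b2 spread widely within both groups.

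The bile acid receptor gene Nr1h4 (ENSMUSG00000047638, GRCm38 chr10:89454234-89533585, minus strand) was the member nearest to a call. In KO livers it read 105.8, 118.9, 152.5, 114.5, 148.4 and 100.3 CPM in libraries 1 to 6, and in WT livers 163.7, 176.3, 166.7, 162.7, 146.5 and 160.6 CPM. In the KO group libraries 1, 2, 4 and 6 lay below every WT library, and libraries 3 and 5 lay within the WT range. The mean was 123 ± 21.99 CPM in KO and 163 ± 9.66 CPM in WT (SD of 6 libraries), and the coefficient of variation was 17.8% in KO and 5.93% in WT. This is a log2 fold change of -0.40 ± 0.10 (SE; 95% interval -0.62 to -0.18; edgeR, Benjamini-Hochberg adjusted p = 0.0558). Permuting the labels of the 12 libraries exactly gave an unadjusted two-sided p of 0.00649, where 0.00216 is the smallest that 6 against 6 can give. The adjusted p passed the threshold without KO library 3 (0.0298), without KO library 5 (0.0416), with a filter of at least 1 CPM in 6 libraries (0.0491) and with DESeq2 (0.0108), and it was 0.129 without WT library 2.

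Nr0b2 (ENSMUSG00000037583, GRCm38 chr4:133553376-133556536, plus strand), the gene of SHP and the classical target of FXR, had nearly equal means in both groups. It averaged 43.8 ± 18.0 CPM in KO and 43.2 ± 14.5 CPM in WT (SD of 6 libraries). The KO libraries 1 to 6 read 13.1, 53.8, 51.5, 30.6, 57.9 and 55.7 CPM, and the WT libraries 65.2, 49.1, 26.6, 32.8, 34.1 and 51.3 CPM. KO library 1 was lowest of all 12, with 471 reads, the smallest count of any member (95% Poisson interval 429 to 516, counting error only). edgeR put the log2 fold change at 0.019 ± 0.34 (SE; 95% interval -0.71 to 0.75; adjusted p = 0.983). Without KO library 1 the log2 fold change was 0.21. The log2 ratio of Nr0b2 to Nr1h4 counts inside a library averaged -1.64 ± 0.76 in KO and -1.98 ± 0.47 in WT (SD of 6 libraries; difference 0.34, exact permutation p = 0.361, 0.433 after Benjamini-Hochberg adjustment over 4 ratios).

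Cyp7a1 (ENSMUSG00000028240, GRCm38 chr4:6265612-6275633, minus strand), which opens the classic route, had the largest fold change of the 9 and a wide spread. In KO libraries 1 to 6 it read 145.7, 96.0, 156, 118, 138 and 29.1 CPM, and in WT libraries 176, 257, 220.3, 345, 110.5 and 97.8 CPM. The highest level of any KO library lay below those of WT libraries 1 to 4, while WT libraries 5 and 6, at 110.5 and 97.8 CPM, lay within the KO range. KO library 6 was the lowest of all, at 29.1 CPM, and the next KO library stood at 96.0 CPM. The mean was 114 ± 46.7 CPM in KO and 201 ± 93.4 CPM in WT (SD of 6 libraries). The log2 fold change was -0.82 ± 0.40 (SE; 95% interval -1.69 to 0.049; edgeR, Benjamini-Hochberg adjusted p = 0.262), and the exact permutation p was 0.0823, unadjusted. The fold change was -0.63 without KO library 6 and -0.60 without WT library 4, with no call under any alternative (adjusted p 0.167 to 0.466).

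Cyp8b1 (ENSMUSG00000050445, GRCm38 chr9:121914356-121916305, minus strand), the 12 alpha-hydroxylase gene, overlapped between the groups over nearly its whole range. It ran from 330 to 663 CPM with a median of 458 CPM in KO, and from 361 to 698 CPM with a median of 508 CPM in WT. KO library 6 was lowest and WT library 4 highest. The log2 fold change was -0.088 ± 0.19 (SE; 95% interval -0.50 to 0.32; edgeR, adjusted p = 0.827), and its sign turned without WT library 4 (0.022). The log2 ratio of Cyp8b1 to Cyp7a1 averaged 2.22 ± 0.71 in KO and 1.44 ± 0.54 in WT (SD of 6 libraries), a difference of 0.78 that did not pass (exact permutation p = 0.0563, 0.113 after Benjamini-Hochberg adjustment over 4 ratios). KO libraries 4 and 6 lay above all WT libraries for this ratio.

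In the alternative route Cyp27a1 (ENSMUSG00000026170, GRCm38 chr1:74713574-74737892, plus strand) was among the steadiest members. It ran from 474 to 619 CPM with a median of 528 CPM in KO, and from 404 to 574 CPM with a median of 476 CPM in WT, and only KO library 4 lay above all WT libraries. Its log2 fold change was 0.14 ± 0.094 (SE; 95% interval -0.059 to 0.35; edgeR, adjusted p = 0.405). The log2 ratio of Cyp7a1 to Cyp27a1 compares 2 transcripts and does not measure use of the classic or the alternative route. It averaged -2.40 ± 0.89 in KO and -1.40 ± 0.64 in WT (SD of 6 libraries). The difference of -1.01 had an exact permutation p of 0.0281, and 0.113 after Benjamini-Hochberg adjustment over 4 ratios. KO libraries 2, 4 and 6 lay below all WT libraries, and without KO library 6 the difference was -0.66 (exact permutation p = 0.0693, unadjusted).

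**Figure D2:**
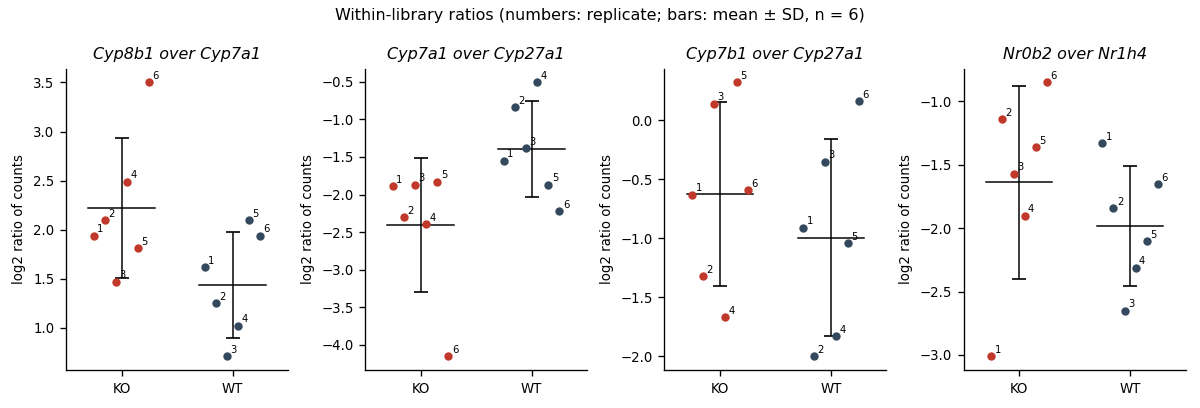
Log2 ratio of the counts of each gene pair inside a library (y axis) for KO and WT; points are libraries with their replicate number, bars the mean and SD of 6. For Cyp7a1 over Cyp27a1, KO libraries 2, 4 and 6 lie under all WT libraries and KO library 6 stands alone at -4.15.

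In the same route Cyp7b1 (ENSMUSG00000039519, GRCm38 chr3:18071950-18243338, minus strand), which clears oxysterols, was the most variable member within a group, with a coefficient of variation of 50.1% in KO and 58.8% in WT. KO libraries 1 to 6 held 349.5, 190, 628, 194, 607 and 341 CPM, and WT libraries 275, 115, 451, 138, 197 and 509.6 CPM. KO libraries 3 and 5 lay above all WT libraries, and WT libraries 2 and 4 lay below all KO libraries. Its log2 fold change was 0.46 ± 0.44 (SE; 95% interval -0.49 to 1.40; edgeR, adjusted p = 0.591). The log2 ratio of Cyp7b1 to Cyp27a1 averaged -0.63 ± 0.78 in KO and -0.99 ± 0.83 in WT (SD of 6 libraries; exact permutation p = 0.433, also after adjustment over 4 ratios).

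Among the later enzymes, Akr1d1 (ENSMUSG00000038641, GRCm38 chr6:37530173-37568815, plus strand), the steroid 5 beta-reductase gene, showed the second lowest p. KO libraries 1 to 6 held 94.4, 143, 171, 172, 156.5 and 183 CPM, and WT libraries 187, 286, 237, 324.5, 226 and 131 CPM. All 6 KO libraries lay below WT libraries 1 to 5, whose lowest held 187 CPM, while WT library 6, at 131 CPM, lay within the KO range. The mean was 153 ± 32.0 CPM in KO and 232 ± 69.0 CPM in WT (SD of 6 libraries). The fitted log2 fold change was -0.60 ± 0.21 (SE; 95% interval -1.04 to -0.15; edgeR, adjusted p = 0.125; exact permutation p = 0.039, unadjusted). The call depended on the tool and on the libraries kept: without WT library 6 the log2 fold change was -0.72 with an adjusted p of 0.0378. DESeq2 on all libraries gave 0.0477, and the other alternatives ran up to 0.253. Akr1d1 overlaps the predicted gene Gm7463 on the same strand, so its reads are uncertain to that extent.

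Amacr and Baat, which act at the end of the pathway, had group means close to each other. Amacr (ENSMUSG00000022244, GRCm38 chr15:10981756-10996626, plus strand), the racemase gene, ran from 109 to 196 CPM with a median of 161 CPM in KO, and from 133 to 179 CPM with a median of 154 CPM in WT (log2 fold change 0.047 ± 0.12 SE; 95% interval -0.22 to 0.31; edgeR, adjusted p = 0.862). Baat (ENSMUSG00000039653, GRCm38 chr4:49489422-49506557, minus strand), the conjugating enzyme gene, ran from 262 to 323 CPM with a median of 290.3 CPM in KO, and from 255 to 320.3 CPM with a median of 292 CPM in WT (log2 fold change 0.015 ± 0.076 SE; 95% interval -0.15 to 0.18; edgeR, adjusted p = 0.937). For Baat the interval leaves room for a difference of at most 0.18 on the log2 scale. The signs of both turned under some alternatives: Amacr without KO library 3 or 6, and Baat with total counts only and without KO library 3, 5 or 6 or WT library 6.

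The members can be ordered by level per kilobase of exon (RPKM, on the exon lengths of GENCODE M21). Cyp8b1 came first by its WT mean, with 246 ± 60.3 RPKM in KO and 261 ± 68.0 RPKM in WT (SD of 6 libraries). Cyp27a1 followed with 246 ± 24.9 RPKM in KO and 223 ± 27.0 RPKM in WT. Next came Baat (151 ± 13.0 RPKM in KO, 149 ± 11.3 RPKM in WT) and Cyp7b1 (178 ± 89.1 RPKM in KO, 130.0 ± 76.2 RPKM in WT). Akr1d1, Nr1h4, Amacr, Cyp7a1 and Nr0b2 had WT means between 38.2 and 80.2 RPKM and KO means between 27.3 and 60.9 RPKM. The neighbours Cyp8b1 and Cyp27a1 exchanged places between libraries (Cyp8b1 higher in 7 of 12), as did Baat and Cyp7b1 (6 of 12), Akr1d1 and Nr1h4 (6 of 12) and Cyp7a1 and Nr0b2 (Cyp7a1 higher in 5 of 12), whereas Cyp27a1 stood above Baat in 12 of 12. In KO, Nr1h4 was below Amacr in 4 of 6 libraries, and in WT it was above Amacr in 6 of 6.

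Over the 12 libraries, 36 pairs of members were compared by the correlation of log2 CPM. Cyp7b1 and Amacr had the highest correlation, with Pearson r = 0.77 (permutation p = 0.00271, 0.085 after Benjamini-Hochberg adjustment over 36 pairs) and Spearman rho = 0.87 (permutation p = 0.00055, adjusted 0.0198). Taken as deviations from the group means, r was 0.79 (permutation p = 0.00121, adjusted 0.0436), and it was 0.80 in KO and 0.92 in WT. Here and below, deviations were permuted freely over the 12 libraries although the group means had been taken out. Each p on deviations is therefore approximate and may be too small. Without WT libraries 2 and 4, the farthest from the median of Cyp7b1, the uncentred r of this pair was 0.75 (permutation p = 0.00471, adjusted 0.17). Cyp7a1 and Nr1h4 had r = 0.71 (permutation p = 0.00472, adjusted 0.085) and rho = 0.75 (permutation p = 0.00699, adjusted 0.126). As deviations from the group means, their r was 0.59 (permutation p = 0.0455, adjusted 0.308). Without KO library 6 and WT library 4, the farthest from the median of Cyp7a1, r was 0.53 (permutation p = 0.111). Cyp7a1 and Cyp8b1 had r = 0.63 (permutation p = 0.0204, adjusted 0.245) and rho = 0.57 (permutation p = 0.059, adjusted 0.354). As deviations from the group means, their r was 0.67 (permutation p = 0.0158, adjusted 0.19), at 0.695 within KO and 0.651 within WT. Without those same 2 libraries, their r was 0.21 (permutation p = 0.543). Cyp8b1 and Cyp7b1 had r = -0.61 (permutation p = 0.0396, adjusted 0.352) and rho = -0.52 (permutation p = 0.0841, adjusted 0.378), at -0.23 within KO and -0.90 within WT. No pair passed on Pearson's r of the uncentred levels after adjustment.

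**Figure D3:**
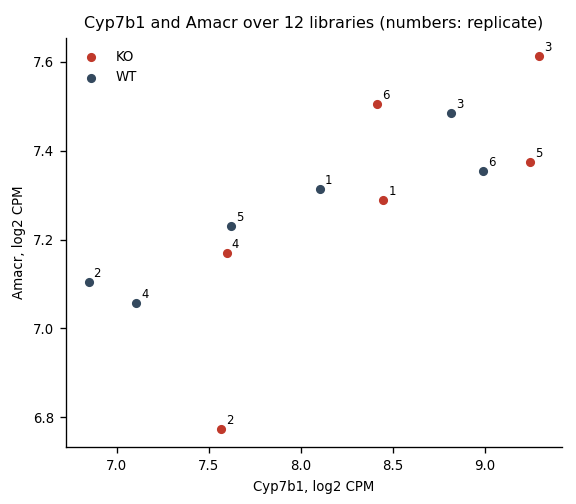
Amacr (y axis, log2 CPM) against Cyp7b1 (x axis, log2 CPM) in 12 libraries, KO and WT in separate colours with replicate numbers. Amacr tends to be higher where Cyp7b1 is higher in both groups (Spearman rho 0.87), and KO library 2 lies lowest in Amacr.

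By Pearson r over the 12 libraries, ranked among the 9652 genes that averaged 5 CPM or more and given without a p since these are the highest of a ranking, the genes most like Cyp7a1 were Klf10 (r = 0.93), Zfp235 (0.91) and Usp40 (0.90). Those most like Cyp8b1 were Zfp383 (0.90), Fam126a (0.84) and Cyp4a32 (0.81), the last a gene with close copies whose reads are uncertain. Those most like Cyp7b1 were C8b (0.94), Zbtb8os (0.93) and Carmil1 (0.93).

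Genes of the daily clock differed between the groups beside Cyp7a1 and Cyp8b1. Of 10 clock genes, 3 passed the edgeR test, against 2.64% of all genes: Hlf (log2 fold change -0.80 ± 0.16 SE, adjusted p = 0.0266) and Tef (-0.93 ± 0.20 SE, adjusted p = 0.0326) fell and Cry1 rose (0.96 ± 0.21 SE, adjusted p = 0.036). Dbp, whose protein binds D-boxes, stood at 9.07 to 68.3 CPM in KO, against 64.8 to 154 CPM in WT, without passing (-1.77 ± 0.45 SE, adjusted p = 0.0609). DESeq2, which called 8.02% of all genes, called 5 of the 10, these 3 with Arntl and Dbp, and limma-voom 4, with Dbp and Arntl but not Cry1. KO libraries 2 and 6, with the lowest Dbp at 9.07 and 12.5 CPM, were also the KO libraries with the lowest Cyp7a1. In WT the match was partial. WT library 6 was lowest in both genes (64.8 CPM for Dbp, 97.8 CPM for Cyp7a1). WT library 5 was above all but WT library 3 in Dbp (138.8 CPM) and below all but WT library 6 in Cyp7a1 (110.5 CPM). The part of sampling time in the Cyp7a1 values was not tested. The Dbp and Elovl3 genes overlap Sphk2 and Pitx3, and without strand information their reads are uncertain.

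Sex-biased genes shifted between the groups and varied within the WT group beside Cyp7b1. Of 8 sex-biased genes, 6 were tested. The male-biased elongase gene Elovl3 alone passed and rose (log2 fold change 2.17 ± 0.36 SE; edgeR, adjusted p = 0.0176). That is 16.7% of the 6, beside 2.64% of all genes. An unadjusted p under 0.05 was found for 5 of the 6 with edgeR, beside 21.2% of all genes. DESeq2 called 3 of the 6, Elovl3, Mup20 and Cyp2b9, beside 8.02% of all genes, and limma-voom 1, Elovl3. The log2 fold change was also positive for Mup20 (1.17), Cyp4a12a (0.68) and Cyp2d9 (0.27). It was negative for Cyp2b9 and Cyp2b13 (-2.37 for Cyp2b13). The female-biased gene Cyp2b9 stood at 0.334 to 13.8 CPM in KO, against 0.727 to 198 CPM in WT (log2 fold change -3.85 ± 1.18 SE; edgeR, adjusted p = 0.101; called with DESeq2). WT libraries 2 and 4 were highest in Cyp2b9, at 198 and 138 CPM, and lowest in Cyp7b1 and in the male-biased gene Mup20 (649 and 574 CPM, against 1289 to 2712 CPM in the other WT libraries). They were also the lowest WT libraries in Elovl3 and Cyp2d9. Cyp4a12a was lowest in WT libraries 4 and 5 (87.3 and 120.5 CPM), with WT library 2 at 141 CPM. Cyp2b13 was highest in WT libraries 4 and 5 (3.89 and 2.79 CPM), with WT library 2 at 2.20 CPM. WT libraries 2 and 4 had the highest Akr1d1, Cyp7a1 and Cyp8b1 levels of all WT libraries. What these shared patterns contribute to the group values was not tested.

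**Figure D4:**
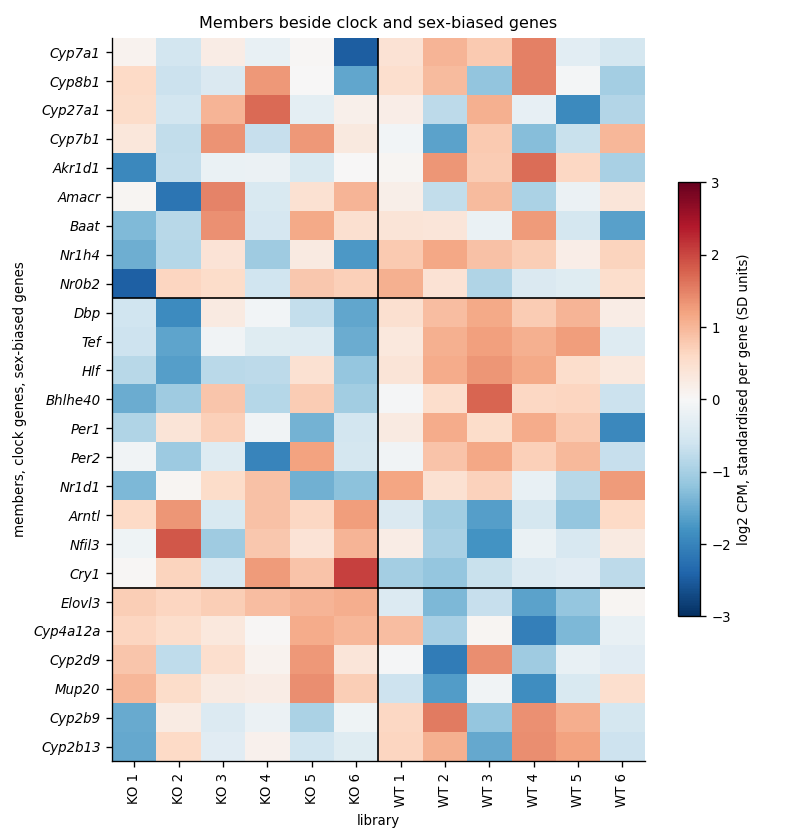
Log2 CPM of the 9 members (top), 10 clock genes (middle) and 6 sex-biased genes (bottom), standardised per gene in SD units, in KO libraries (left) and WT libraries (right). WT libraries 2 and 4 are low in Cyp7b1 and Mup20 and high in Cyp2b9, and KO libraries 2 and 6 are lowest in Dbp.

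Beyond the members, 3 lists of pathway genes were examined, 51 tested genes in all, of which 1 passed the test, beside 2.64% of all genes. No other enzyme of bile acid synthesis passed among 13 tested of 14, beside 2.64% of all genes. With limma-voom 0 passed, and the median log2 fold change with edgeR was 0.038. An unadjusted p under 0.05 was found for 4 of the 13 (30.8%, beside 21.2% of all genes), and DESeq2 called 2, Cyp46a1 and Scp2 (15.4%, beside 8.02% of all genes). Scp2, the peroxisomal thiolase and sterol carrier gene, averaged 4756 ± 318 CPM in KO and 3894 ± 402 CPM in WT, with 5 of 6 KO libraries above every WT one (log2 fold change 0.29 ± 0.087 SE, adjusted p = 0.0882). Cyp46a1, which hydroxylates cholesterol at another side chain carbon, averaged 3.66 ± 1.14 CPM in KO and 6.52 ± 2.52 CPM in WT (-0.84 ± 0.27 SE, adjusted p = 0.108), and Slc27a2, the gene of a very long-chain acyl-CoA synthetase, stood at -0.31 ± 0.13 (SE, adjusted p = 0.188; edgeR). Reads of Scp2 are uncertain, since it overlaps Podn.

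Of the partners and co-regulators of FXR, 0 of 21 tested of 22 passed with edgeR, beside 2.64% of all genes. With limma-voom 0 passed, and the median log2 fold change with edgeR was -0.029. An unadjusted p under 0.05 was found for 6 of the 21 (28.6%, beside 21.2% of all genes), and DESeq2 called 3, Mafg, Ncor1 and Foxa2 (14.3%, beside 8.02% of all genes). Mafg, an FXR-induced repressor of Cyp8b1, stood at 89.5 to 119 CPM in KO, against 107 to 150.3 CPM in WT, with 3 KO libraries below all WT libraries (log2 fold change -0.35 ± 0.093 SE, adjusted p = 0.0616). Its adjusted p was 0.0177 without WT library 6 and 0.0397 with the replicate number as a block. Ncor1, a co-repressor of nuclear receptors, stood at 86.6 to 124 CPM in KO, against 123 to 152 CPM in WT, with 5 KO libraries below all WT libraries (-0.34 ± 0.097 SE, adjusted p = 0.078). Foxa2, a hepatocyte factor that acts on bile acid genes, stood at 30.6 to 73.6 CPM in KO, against 28.4 to 42.1 CPM in WT, with 5 KO libraries above all WT libraries (0.57 ± 0.17 SE, adjusted p = 0.0839, and 0.0357 without KO library 2). Mafg overlaps Sirt7 and Ncor1 overlaps Ttc19 and Pigl, so reads of both are uncertain.

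Of the genes known as hepatic FXR targets other than Nr0b2, 1 of 18 tested of 20 passed (5.56%, beside 2.64% of all genes), with a median log2 fold change of 0.060. The list was not split by whether FXR raises or lowers a gene, so this median does not measure FXR activity. Slc51a and Slc51b were the listed genes not tested. An unadjusted p under 0.05 was found for 3 of the 18 with edgeR (16.7%, beside 21.2% of all genes). DESeq2 called 2, Kng1 and Mafg (11.1%, beside 8.02% of all genes), and limma-voom 1. Kng1, the kininogen gene, known as an FXR target from human cells, rose. It ran from 2227 to 3053 CPM with a median of 2745 CPM in KO, and from 1563 to 1876 CPM with a median of 1671 CPM in WT, so every KO library lay above every WT library. The log2 fold change was 0.70 ± 0.091 (SE; edgeR, Benjamini-Hochberg adjusted p = 0.00534), and it passed under every alternative run (adjusted p 2.98e-11 to 0.0247). Kng1 has a close copy, Kng2, which also rose (0.28 ± 0.069 SE, adjusted p = 0.046), and how reads shared by the copies were counted is not given, so both values are uncertain. The bile acid uptake carrier genes Slc10a1 (log2 fold change -0.27 ± 0.11 SE, adjusted p = 0.196) and Slco1b2 (-0.20 ± 0.12 SE, adjusted p = 0.359) stood lower without passing, and 4 KO libraries lay below all WT libraries for Slc10a1.

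**Figure D5:**
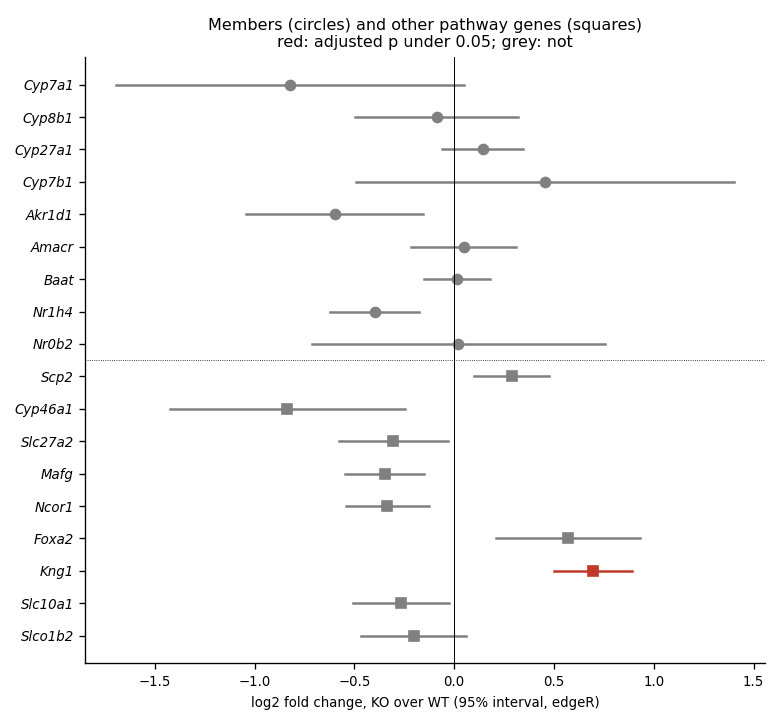
Log2 fold change of KO over WT (x axis) with its 95% interval from edgeR for the 9 members (circles) and 9 other pathway genes (squares); red marks an adjusted p under 0.05. Kng1 is the only red row, and the intervals of Nr1h4 and Akr1d1 lie below 0 although neither passed after adjustment over 15000 genes.

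Markers of other liver cells were set beside these genes, since in bulk tissue fewer cells of a type and less RNA per cell cannot be told apart. The 7 hepatocyte markers held 0 calls with edgeR, beside 2.64% of all genes. They also held 0 with DESeq2 and limma-voom, and 0 at an unadjusted p under 0.05 with edgeR. The 8 macrophage markers summed to 113 to 238 CPM in KO and 229 to 352.5 CPM in WT, and 3, Adgre1, Cd5l and Vsig4, fell (37.5%, beside 2.64% of all genes). DESeq2 called 7 of the 8 lower (87.5%, beside 8.02% of all genes). The 6 measured of 8 cholangiocyte markers summed to 78.8 to 199 CPM in KO and 81.1 to 131 CPM in WT. All 6 had a positive log2 fold change (median 0.504), and 1 passed and rose (16.7%, beside 2.64% of all genes). That gene was Slc10a2, which encodes the apical bile acid carrier of the ileum and of cholangiocytes, at 58.0 ± 14.6 CPM in KO and 36.0 ± 5.11 CPM in WT (SD of 6 libraries; log2 fold change 0.69 ± 0.16 SE; edgeR, adjusted p = 0.0414). It was called with DESeq2 and not with limma-voom. Krt19, the defining cholangiocyte keratin, stood at 0.678 to 3.06 CPM in KO and 0.424 to 1.97 CPM in WT. Of 6 intestinal markers, 1, Fabp2, was tested, at a log2 fold change of 0.14. The part of these cells in the values of the members was not tested.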

How the data were processed

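The authors deposited 1 table of whole-number read counts per gene for 12 libraries, per the file headers and values, beside their own log2 fold change with its error, test score, p-value and adjusted p-value, and a mean normalised signal per gene that was not used; the columns of this deposited comparison are named as DESeq2 writes them. Per the submitters' processing notes, the build was GRCm38 and the tools included HISAT2, featureCounts and DESeq2, with FastQC, Trimmomatic and SAMtools; no version or role is listed there. No source used here gives the annotation, the strand setting or the handling of shared reads. The table had 15344 rows, of which 204 repeated a gene with the same counts and were left out. Gene positions and exon lengths came from GENCODE M21 (GRCm38), for 15127 of 15140 genes.

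Groups and replicate numbers came from the sample titles. KO was compared with WT with edgeR 4.0.16 (R 4.3.3), quasi-likelihood F test with robust estimation, TMM scaling, and filterByExpr (15000 genes tested, 140 removed); p-values were adjusted over all 15000 by Benjamini-Hochberg, threshold 0.05. SE is the absolute unshrunk log2 fold change over the square root of F. Log2 CPM used a prior count of 1. Single genes and 4 within-library log2 ratios (1 added to each count) were tested by exact two-sided permutation over 924 splits; correlations used 100000 permutations. The scripts were tested on simulated data. Every pair of libraries in a group differed beyond counting noise: over the 30 pairs, chi-square divided by its degrees of freedom was 38.13 to 242.3.

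The members and gene lists were chosen with earlier results of these data known, so no p-value of a single gene is adjusted over a list alone. The p-values of the 4 ratios and of the 36 pairs of members are adjusted over those families, which were built from the members and share that limit. The text names all members, each gene of a pathway list that passed and up to 3 others of that list with the smallest p, 3 genes most like each of 3 members, and genes of the fixed clock, sex-biased and marker lists. Genes singled out from the clock, sex-biased and marker lists, and Kng2, were picked with their values in view. Alternatives were RLE size factors, total counts, no filter, at least 1 CPM in 6 libraries, DESeq2 1.42.0, limma-voom (limma 3.58.1), the replicate number as a block, a prior count of 0.25, and each library left out. Intervals on counts cover counting error only.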

Additional observations from a re-analysis of the deposited data

Results flagged for a closer look

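Of 76 groups of 6 libraries examined (members, other named genes, clock and sex-biased genes, and ratios), 6 held a library far from the rest, where chance gives about 3.8. The first number given for each is its distance from the closest library as a share of the whole range of its group; levels follow in log2 CPM. KO library 6 was low in Cyp7a1 (0.711; 4.86, with the others at 6.59 to 7.29) and in the log2 ratio of Cyp7a1 to Cyp27a1 (0.758; -4.15, with the others at -2.39 to -1.83), which share the Cyp7a1 counts. KO library 1 was low in Akr1d1 (0.626; 6.56, with the others at 7.16 to 7.52). For the uptake carriers, KO library 2 was low in Slc10a1 (0.64; 8.69, with the others at 9.15 to 9.41) and KO library 3 was high in Slco1b2 (0.641; 10.89, with the others at 10.26 to 10.49). WT library 6 was low in the clock gene Per1 (0.724; 3.11, with the others at 4.95 to 5.65).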

How the results depend on the processing

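The count of members called was 0, and 1 (Nr1h4) with a filter of at least 1 CPM in 6 libraries, 2 with DESeq2, and 0 to 1 with a library left out. The count over all genes was 396, and 257 with total counts only, 1214 with DESeq2 and 25 to 700 with a library left out (25 without WT library 4, 46 without WT 2, 86 without KO 6, 89 without WT 5, 235 without KO 2 and 700 without WT 6). Of the other pathway genes 1 was called, Kng1, and 6 with DESeq2, 2 with the replicate block and 1 to 3 with a library left out. Of the pairs of members, 0 passed on Pearson's r after adjustment. As deviations from the group means 1, Cyp7b1 with Amacr, passed on r, by a permutation p that is approximate and may be too small. The same pair passed on Spearman's rho without centring (adjusted permutation p = 0.0198). With a library left out, the difference in log2 ratio ran from 0.52 to 0.93 for Cyp8b1 over Cyp7a1, from -1.17 to -0.66 for Cyp7a1 over Cyp27a1, from 0.17 to 0.60 for Cyp7b1 over Cyp27a1 and from 0.18 to 0.61 for Nr0b2 over Nr1h4, and none passed under any alternative. The log2 fold change of Baat was -0.004 with total counts only (-0.002 as a difference of mean log2 CPM), and that of Nr0b2 was -0.071 with limma-voom and -0.018 with the replicate block. With a library left out, it ran from -0.088 to 0.21 for Nr0b2, -0.21 to 0.022 for Cyp8b1, -0.034 to 0.13 for Amacr and -0.029 to 0.046 for Baat; as differences of mean log2 CPM the ranges in that order were -0.20 to 0.24, -0.18 to 0.018, -0.035 to 0.13 and -0.022 to 0.045. The replicate numbers did not pair the samples (correlations of same-numbered deviations -0.23 to 0.43, 1 of 6 libraries closest to its own number). The cause of these changes was not tested.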
